A study of Homo sapiens with 12 samples.

Results

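Of the 54613 probe sets of the array that are not controls, 139 differed between dexamethasone and ethanol at 6 h and had close to no difference at 24 h. They are described here as the transient 6 h set. A probe set entered when the mean of the dexamethasone arrays minus the mean of the ethanol arrays was at least 0.5 in size on the log2 scale at 6 h, with 1 sign in all 3 same-numbered experiments. Its difference at 24 h also had to be under 0.25 in size, and its mean over the 12 arrays at least 5. These probe sets were thus chosen by measured values of all 12 arrays, the same values described below, so the levels and differences of these probe sets are given as descriptions. Where counts of limma calls among them are printed, these rest on the values that chose the set and support nothing. The set held 91 probe sets that were lower with dexamethasone at 6 h and 48 that were higher. By annotation 116 of the 139 carried 1 gene symbol, for 105 genes (65 lower and 40 higher), 5 carried several symbols and 18 none.

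The cells were CCRF-CEM-C7H2, a clone of a human T-cell acute lymphoblastic leukemia line that is sensitive to glucocorticoids. They received 100 nM dexamethasone, a synthetic glucocorticoid, for 6 h (experiments 0, 1 and 3) or 24 h (experiments 1, 2 and 3), or the carrier, 0.1% ethanol, for the same times in the same experiments. RNA of each culture was hybridized to 1 Affymetrix HG-U133 Plus 2.0 array, which gave 4 groups of 3 arrays. Values are the authors' log2 expression levels per probe set, and 1 unit is a doubling. All groups come from 1 clone, so the spread is that among independent experiments, and fewer cells of a state cannot be told apart from less RNA per cell. Codes in the array names put the 3 dexamethasone arrays of 6 h in 1 batch, the 3 ethanol arrays of 6 h in another, and all 6 arrays of 24 h in 1 more. At 6 h, batch and treatment therefore cannot be told apart, and no difference at 6 h given here is free of the batch. Comparisons of 24 h with 6 h cross the same batches, so time and batch cannot be told apart there. The dexamethasone arrays of 6 h also stand apart in their 18S rRNA controls, whose values are given with the array positions.

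Glucocorticoids enter the cell and bind the glucocorticoid receptor, which moves to the nucleus and raises or lowers transcription at its binding sites or through other factors such as NF-kB and AP-1. In lymphoid leukemia cells such hormones stop growth and set off cell death. The genes described here range from secreted and immune regulators through chromatin proteins and kinases to metal-binding proteins.

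The probe set with the largest difference was that of SERPINI1, which encodes neuroserpin, a secreted inhibitor of tissue plasminogen activator known from neurons. Its log2 level was 6.01, 5.45 and 5.86 on the dexamethasone arrays of 6 h, against 7.14, 6.82 and 7.30 on the ethanol arrays of experiments 0, 1 and 3. At 24 h it was 6.83, 6.28 and 6.91 with dexamethasone and 6.38, 6.43 and 7.07 with ethanol. The 3 dexamethasone arrays of 6 h were the lowest of all 12, while the groups of 24 h overlapped. The difference was -1.31 ± 0.16 at 6 h and 0.05 ± 0.35 at 24 h, where ± is here and below the SD over 3 same-numbered experiments. The gene's span on GRCh38.p14 (chromosome 3, 167735721 to 167825569) starts 828 bases beyond the highest coordinate of the span of its neighbour PDCD10, a gene known from cerebral cavernous malformations. The probe set of PDCD10 differed by -0.12 at 6 h and -0.07 at 24 h. Below are the 250 bases before the start of SERPINI1, of TNFAIP3 and of MT1H, from RefSeq on GRCh38.p14. They are shown because these 3 genes stand for the set's largest difference, its NF-kB gene and its metallothioneins. The windows are chr3:167735471-167735720, chr6:137867009-137867258 and chr16:56669564-56669813, all on the plus strand and read 5′ to 3′, and the TNFAIP3 window lies within the span that RefSeq gives the gene. Capitals mark matches on either strand to the NF-kB consensus in TNFAIP3 and to the metal response core TGCNCNC in MT1H, and SERPINI1 has none.
SERPINI1: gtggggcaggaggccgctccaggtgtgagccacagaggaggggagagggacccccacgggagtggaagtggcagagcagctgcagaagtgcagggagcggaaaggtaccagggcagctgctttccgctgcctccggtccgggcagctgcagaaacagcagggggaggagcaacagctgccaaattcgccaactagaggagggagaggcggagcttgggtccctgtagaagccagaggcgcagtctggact
TNFAIP3: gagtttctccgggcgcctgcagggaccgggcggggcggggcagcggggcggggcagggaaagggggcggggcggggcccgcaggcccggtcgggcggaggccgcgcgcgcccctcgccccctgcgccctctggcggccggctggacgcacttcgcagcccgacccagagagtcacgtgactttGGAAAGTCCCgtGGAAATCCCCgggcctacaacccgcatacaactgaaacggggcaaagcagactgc
MT1H: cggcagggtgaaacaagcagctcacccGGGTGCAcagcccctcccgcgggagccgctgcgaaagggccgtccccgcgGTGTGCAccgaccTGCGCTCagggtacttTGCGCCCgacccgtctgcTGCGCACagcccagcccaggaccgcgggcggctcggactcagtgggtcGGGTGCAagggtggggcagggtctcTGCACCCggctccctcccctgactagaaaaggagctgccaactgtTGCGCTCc

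Matches to the NF-kB consensus, to TGCNCNC, to the palindromic glucocorticoid response element and to the cAMP response element TGACGTCA were counted on both strands of the promoter sequences of 27305 genes, over the same 250 bases before the start. Of the 105 genes, 82 had a window there. TNFAIP3 held 2 matches to the NF-kB consensus, and 1.61% of all windows held at least 2. The 8 matches to TGCNCNC in MT1H were reached by 0.0623% of all windows. SERPINI1 held no match to any of the 4 motifs. The glucocorticoid response element was found in 0 of the 82 windows and in 0.00366% of all, and TGACGTCA in 1 of the 82 and in 1.77% of all. The NF-kB consensus was found in 9 of the 82, or 10.98%, against 9.57% of all. TGCNCNC was found in 44 of the 82, or 53.7%, against 48.4% of all. A match in such letters is a description and not a binding site.

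**Figure D1:**
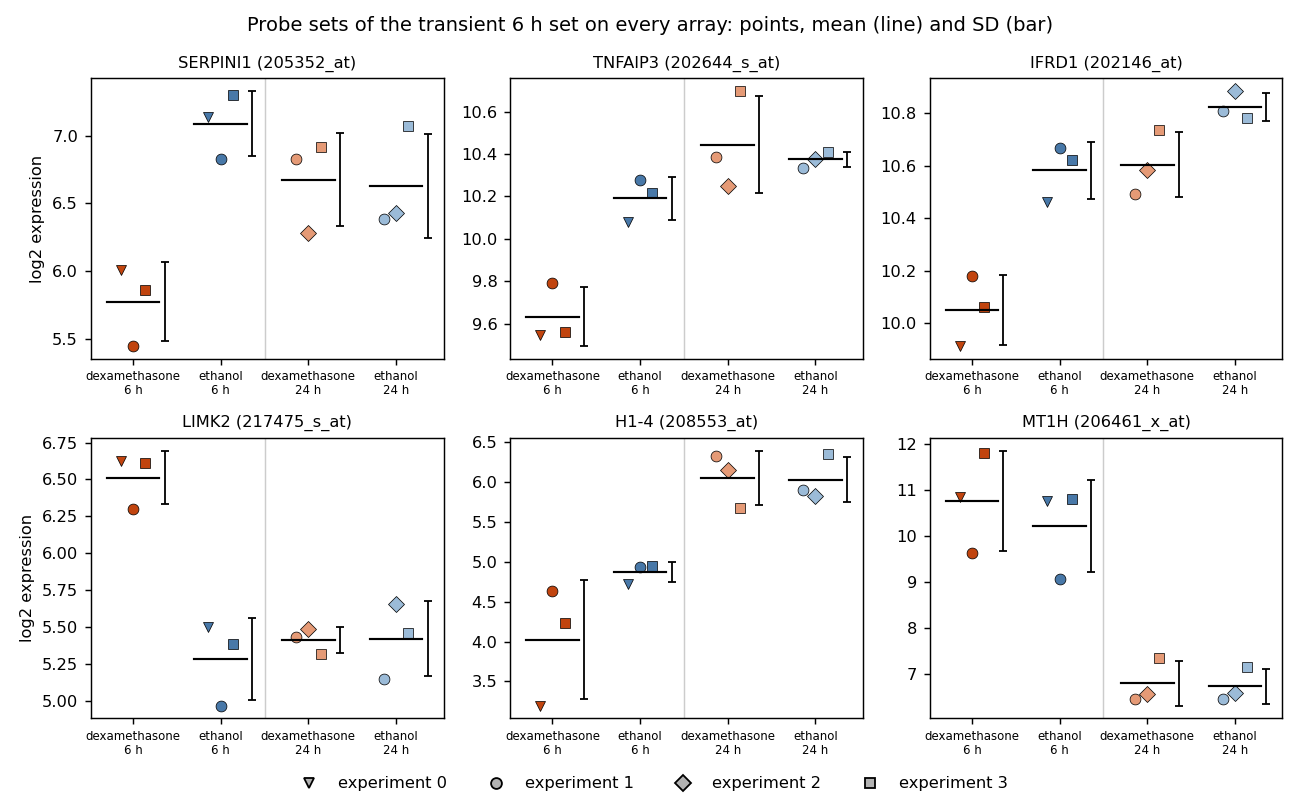
Log2 expression of 6 probe sets (y axis) on each of the 12 arrays by group (x axis); points are arrays with a marker per experiment, lines are means of 3 and bars the SD. SERPINI1, TNFAIP3 and IFRD1 are lowest and LIMK2 highest on the dexamethasone arrays of 6 h, while H1-4 and MT1H differ mainly between 6 h and 24 h.

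Among the probe sets lower at 6 h, the median difference was -0.57 (from -1.31 to -0.50) and the median at 24 h was -0.04. Among those higher, it was 0.56 (from 0.50 to 1.23) at 6 h and 0.04 at 24 h. Most differences were thus close to the threshold. The size also varied by experiment: the median over the 139 was 0.461 in experiment 0, 0.596 in experiment 1 and 0.647 in experiment 3. The 6 h groups of 67 of the 91 lower and 26 of the 48 higher probe sets did not overlap, and of all 23265 tested probe sets 23.5% had such groups. The rule favours such groups, so nothing is read from that distance. At 24 h, the 3 experiments did not share a sign in 53 of the 91 and 31 of the 48. The rule holds the mean difference at 24 h under 0.25 in size and so favours mixed signs, and nothing is read from these counts. Near the threshold at 6 h, a probe set without a symbol and that of SLCO3A1 (a solute carrier) lay just inside at 0.50, and 2 not named here just outside at -0.50. At 24 h, TTC5 (-0.25) and a probe set not named here (-0.25) lay just inside, and a second probe set of ATP2A3 (0.25) and 1 not named here (-0.25) just outside. For the level, LZTR1 (5.03) and NBN (5.04) lay just inside, and a probe set not named here (4.90) and 1 of NPC1 (4.81) just outside.

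These probe sets were a small share of the early response. Of 642 probe sets that were lower by the 6 h and level criteria, 14.2% were in the set. Another 519 were still lower at 24 h and 32 were higher there, with a median 24 h difference of -0.98. Of 687 that were higher, 6.99% were in the set, and 628 others were still higher at 24 h and 11 were lower, with a median of 1.67. The scatter of the differences at 24 h against those at 6 h shows the set as a narrow band at the zero line.

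**Figure D2:**
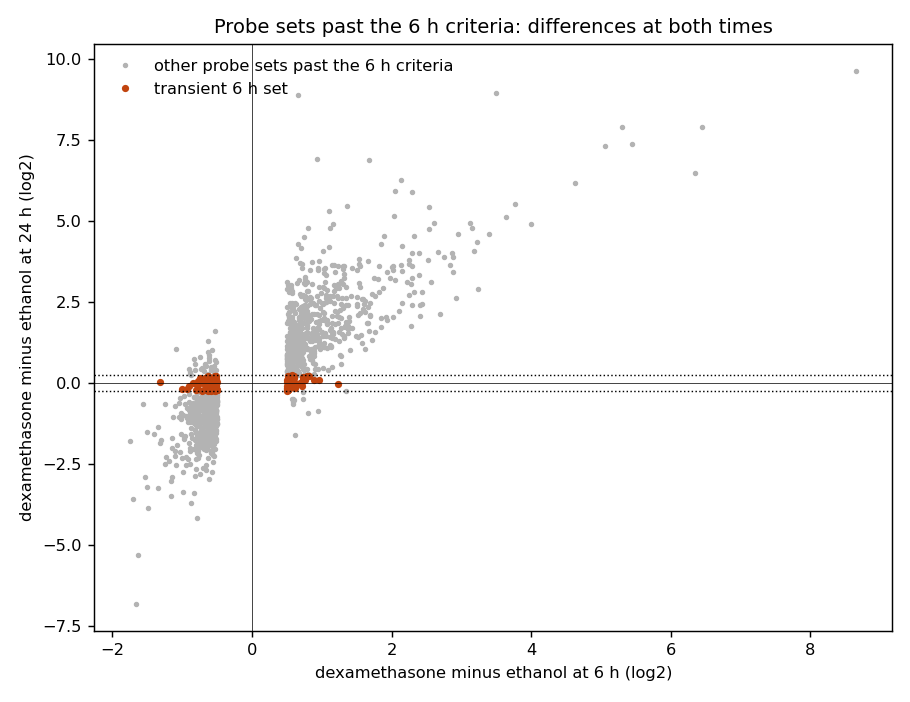
Dexamethasone minus ethanol at 24 h (y axis, log2) against the same at 6 h (x axis, log2) for the 1329 probe sets past the 6 h and level criteria; dotted lines mark 0.25 in size. The 139 of the set lie between the dotted lines by construction, and most of the other 1190 lie on the same side of 0 at both times.

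By limma across all 23265 tested probe sets (log2 of at least 4 on at least 3 arrays, which all 139 reached), 53 of the 139 passed an adjusted p of 0.05 at 6 h, 10 higher and 43 lower. The contrasts at 6 h and 24 h and their difference all chose the set, so nothing is read from these counts or from their distance to the share over all probe sets. Over all probe sets 6.2% passed, 2.66% higher and 3.54% lower. With the experiment as a block the 53 became 101, and 13.1% of all passed. Scaled to the poly-A spike controls, 1 passed higher and 90 lower, 68.2% of all passed, and the median difference of all tested probe sets at 6 h moved to -0.49. Without the dexamethasone array of 6 h of experiment 3 the 53 became 31, with 3.93% of all. It was also 31 without the ethanol array of 6 h of experiment 3, with 3.64% of all. Without the ethanol array of 6 h of experiment 0 it became 35, with 3.89% of all. At 24 h, where the rule held all differences under 0.25, 2 of the 139 passed, STAM (-0.21, a ubiquitin-binding adaptor of endosomal sorting) and TTC5 (-0.25, a cofactor of p53), both lower, against 47.3% of all probe sets called and 24.5% called lower. The block made this 6, with 56.5% of all. The difference between the responses at 24 h and 6 h passed for 32 of them (26 higher, 6 lower), against 23.1% of all (11.4% higher, 11.7% lower), and the block made this 75, with 33.9% of all. Spike scaling gave 21 higher and 1 lower there, with 13.5% of all. Without the dexamethasone array of experiment 1 or of experiment 3 at 24 h it was 20, with 17.7% and 17.4% of all. Without the ethanol array of experiment 1 at 24 h it was 21, with 19.0% of all.

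The position of the 6 h groups among the other arrays varied over the set. The rule makes groups that stand apart more frequent, so nothing is read from the distance of these counts to the shares of all probe sets. In 55 of the 139 the 3 dexamethasone arrays of 6 h lay outside the range of the other 9 arrays (40 lower, 15 higher), and of all tested probe sets 3.68% did so. In 12 the 3 ethanol arrays of 6 h did (10 where dexamethasone was lower, 2 where it was higher), and of all 4.52% did so. UHMK1, which encodes a kinase that acts on cell cycle and splicing proteins, was in both counts: its dexamethasone arrays of 6 h were the lowest and its ethanol arrays of 6 h the highest of 12. The other 73 were in neither. Against the mean of the 6 arrays of 24 h, the dexamethasone mean of 6 h was farther away than the ethanol mean of 6 h in 72 of the 91 lower and 37 of the 48 higher probe sets. The median distance was -0.53 for dexamethasone and 0.10 for ethanol among the lower, and 0.47 for dexamethasone and -0.13 for ethanol among the higher. Since the batches follow the groups, this position cannot be told apart from that of the dexamethasone batch.

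**Figure D3:**
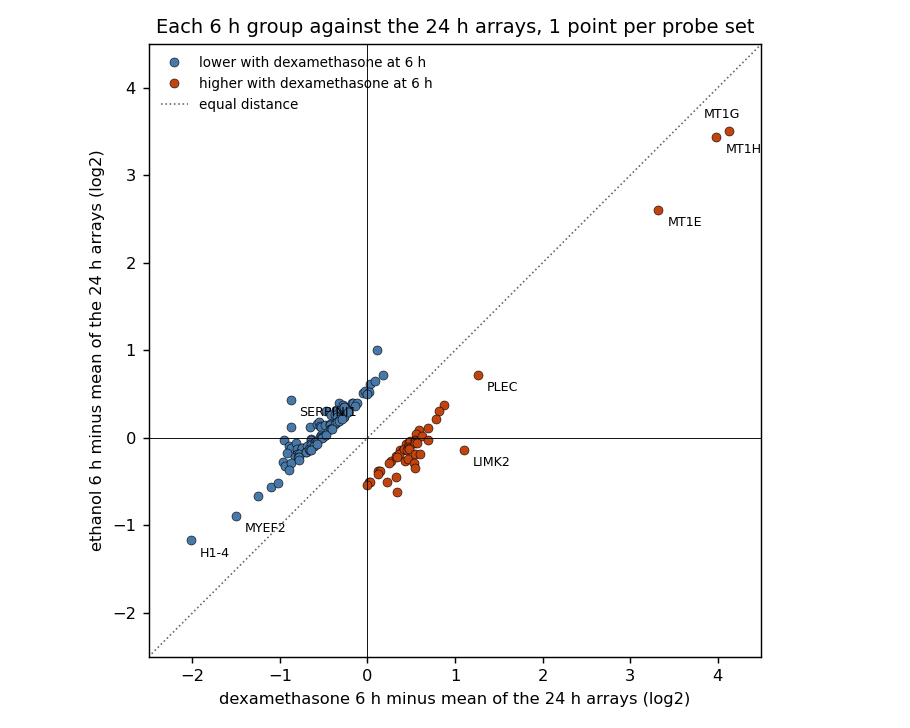
Mean of the dexamethasone arrays of 6 h (x axis) and of the ethanol arrays of 6 h (y axis), each minus the mean of the 6 arrays of 24 h (log2), with 1 point for each of the 139 probe sets and a dotted line where both are equal. Most points lie farther from 0 along the x axis than along the y axis, and the metallothioneins lie above 2.5 on both.

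Control probe sets differed on the same arrays. The 18S rRNA controls had a mean log2 level of 10.02, 8.99 and 9.57 on the dexamethasone arrays of 6 h, against 12.39, 10.59 and 12.41 on the ethanol arrays of 6 h. On the arrays of 24 h they lay between 12.4 and 13.2. Their difference was -2.27 at 6 h and 0.28 at 24 h. The poly-A spikes, RNAs added during labelling, differed by 0.48 at 6 h and 0.34 at 24 h (23 probe sets), and the hybridization spikes by 0.34 and 0.37 (16 probe sets). The 3' to 5' difference of the ACTB controls, a measure of RNA length, lay between 0.84 and 1.12 on all arrays, and that of GAPDH between -0.19 and -0.05. Their part in the differences at 6 h was not tested. The arrays also bore T-lineage markers as labelled: all 10 listed T-lineage leukemia markers passed the filter, with summed log2 levels of 101.8 to 105.5 on the dexamethasone arrays of 6 h and 102.1 to 103.7 on the ethanol arrays of 6 h. No myeloid or erythroid marker passed (0 of 6 and 0 of 4), while 2 of 5 B-cell markers (CD79A and CD79B) and 1 of 5 stromal ones (COL1A1) did. The summed levels of those 2 were 17.1 to 17.8 on the dexamethasone and 16.7 to 17.7 on the ethanol arrays of 6 h, and that of COL1A1 was 6.3 to 6.4 on the dexamethasone and 5.9 to 6.5 on the ethanol arrays.

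**Figure D4:**
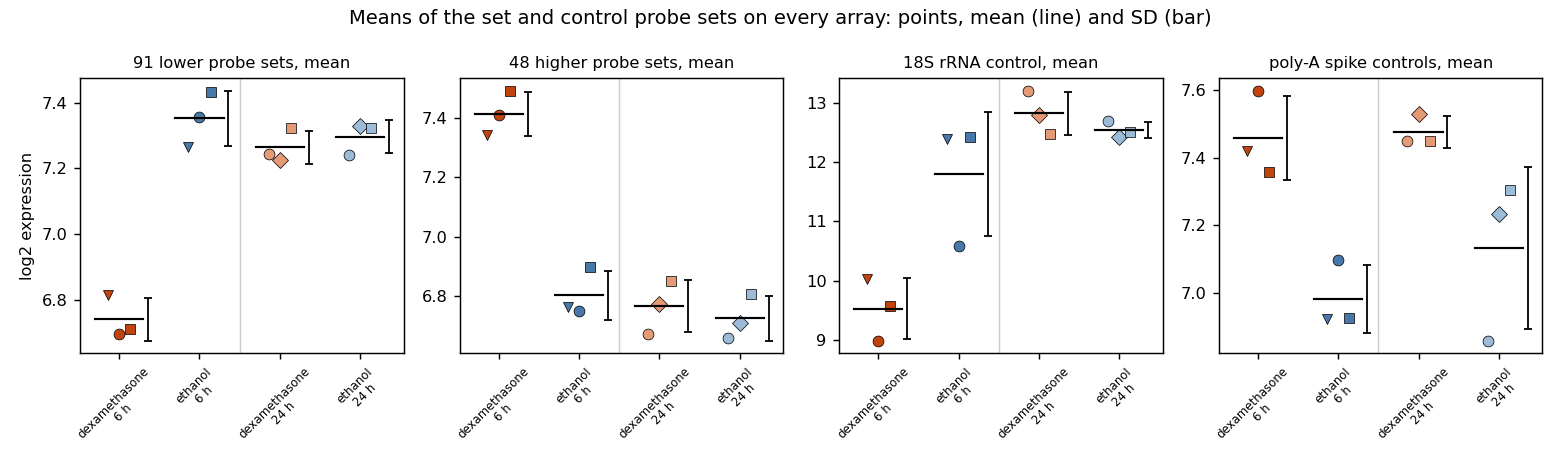
Mean log2 expression (y axis) of the 91 lower and the 48 higher probe sets and of the 18S rRNA and poly-A spike controls, on each array by group (x axis), with the group mean as a line and the SD as a bar (n = 3). The 18S controls are lowest on the dexamethasone arrays of 6 h, as are the 91 lower probe sets, which the rule chose for that.

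The probe sets with a known role were grouped by it after their values had been seen, and no test was made of the groups. Extracellular and immune regulators made up 10 probe sets, of which 9 were lower at 6 h and 1 higher, with the dexamethasone arrays of 6 h apart from the rest in 7. Proteins of the cytoskeleton and of transport along it made up 10, with 7 lower and 3 higher, and the dexamethasone arrays apart in 8. Proteins of RNA binding, processing and decay made up 11, with 6 lower and 5 higher. Membrane, vesicle and transporter proteins made up 14, with 7 in each direction. Kinases, phosphatases and lipid signalling made up 9, with 6 lower and 3 higher, and metabolism 11, with 8 lower and 3 higher. DNA repair, replication and mitosis made up 6, with 3 each way, and protein folding and ubiquitin 7, with 4 lower and 3 higher.

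Transcription and chromatin proteins were the largest group, with 19 probe sets of 15 genes, 14 lower and 5 higher. The dexamethasone arrays of 6 h were apart from the rest in 12 of the 19. NOL4L, a nucleolar protein relative, had 7.14, 7.24 and 7.35 with dexamethasone at 6 h, against 7.98, 8.22 and 8.51 with ethanol, and its dexamethasone arrays of 6 h lay below the other 9 (-0.999 ± 0.16). TAF13, a subunit of the TFIID complex that starts transcription, had 4.82, 4.33 and 4.18 with dexamethasone at 6 h, against 5.83, 4.91 and 5.38 with ethanol (-0.93 ± 0.31). Its dexamethasone arrays of 6 h were the lowest of 12, by a gap of 0.09. SUDS3, a part of the Sin3 corepressor complex, had both of its tested probe sets in the set (-0.69 ± 0.24 and -0.53 ± 0.08). NUCKS1, a chromatin protein, had 2 probe sets in the set. The second was at 6.92, 6.87 and 6.67 with dexamethasone at 6 h, against 7.43, 7.47 and 7.26 with ethanol, and all 6 arrays of 24 h lay between 6.70 and 6.96. There the ethanol arrays of 6 h stood above the rest and the dexamethasone arrays did not stand below it.

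TNFAIP3 encodes A20, which edits ubiquitin chains and restrains NF-kB, and is itself an NF-kB target. Its more abundant probe set had 9.55, 9.79 and 9.56 with dexamethasone at 6 h, against 10.08, 10.28 and 10.21 with ethanol. At 24 h it had 10.38, 10.25 and 10.70 with dexamethasone and 10.34, 10.38 and 10.41 with ethanol. The dexamethasone arrays of 6 h were the lowest of all 12. Its difference was -0.56 ± 0.09 at 6 h and 0.07 ± 0.21 at 24 h, and the other probe set differed by -0.56 ± 0.13 at 6 h. Of 23 listed NF-kB genes, 12 were measured, with 1 probe set per gene. At 6 h, 1 passed higher (NFKBIA, the inhibitor that holds NF-kB in the cytoplasm, 1.59) and 1 lower (TNFAIP3, which the same contrast had chosen), and 6.49% of all genes passed. At 24 h, 4 passed higher and 1 lower, where 52% of all genes passed.

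IFRD1, a transcriptional coregulator, had all 3 of its tested probe sets in the set. The most abundant had 9.91, 10.18 and 10.06 with dexamethasone at 6 h, against 10.46, 10.67 and 10.62 with ethanol, and the groups did not overlap. The 3 probe sets differed by -0.53 ± 0.04, -0.51 ± 0.14 and -0.56 ± 0.16 at 6 h. At 24 h, all 3 were still below ethanol on average (-0.22, -0.12 and -0.15). KIF5B, the heavy chain of a kinesin motor that walks along microtubules, had 6.90, 6.87 and 6.84 with dexamethasone at 6 h, against 7.46, 7.90 and 7.55 with ethanol (-0.77 ± 0.24). LRP12, a member of the low-density lipoprotein receptor family, had 2 probe sets in the set (-0.76 ± 0.09 and -0.74 ± 0.83), and experiments differed widely in the second. PTPN22, a phosphatase that restrains T-cell receptor signalling, had 7.70, 7.79 and 7.76 with dexamethasone at 6 h, against 8.45, 8.36 and 8.30 with ethanol. Its dexamethasone arrays of 6 h lay at least 0.51 below the other 9. RCL1, which acts in ribosomal RNA processing, differed by -0.64 ± 0.08, and MALAT1, a long noncoding RNA of nuclear speckles, by -0.59 ± 0.13. UHMK1 had 7.05, 7.05 and 6.85 with dexamethasone at 6 h, against 7.77, 7.68 and 7.72 with ethanol, and the 6 arrays of 24 h lay between them, from 7.42 to 7.66. RUFY3, an effector in vesicle transport, had 2 probe sets in the set (-0.61 ± 0.33 and -0.51 ± 0.15), as did NDUFS1, a subunit of respiratory complex I (-0.59 ± 0.22 and -0.53 ± 0.49).

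In a smaller number the ethanol arrays of 6 h were the ones apart. HNRNPH1, a splicing regulator, had 11.34, 11.43 and 11.62 with dexamethasone at 6 h, against 11.95, 11.84 and 12.11 with ethanol. At 24 h it had 11.36, 11.37 and 11.51 with dexamethasone and 11.46, 11.47 and 11.50 with ethanol. The dexamethasone arrays of 6 h were thus at the level of the 24 h arrays, and the ethanol arrays of 6 h above them. The zinc finger gene ZNF41 (5.24, 5.16 and 5.28 with dexamethasone, against 5.68, 5.69 and 5.99 with ethanol) and LIX1L (6.33, 6.31 and 5.63, against 6.68, 6.66 and 6.61) had the same order at 6 h.

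H1-4, a linker histone that packs nucleosomes, had 3.20, 4.64 and 4.23 with dexamethasone at 6 h, against 4.72, 4.94 and 4.94 with ethanol (-0.85 ± 0.62). At 24 h it had 6.33, 6.15 and 5.67 with dexamethasone and 5.90, 5.83 and 6.35 with ethanol. Both groups of 6 h lay below every array of 24 h, and the gap between the times was wider than that between the treatments. Of 21 listed histone genes, 13 were measured, and at 6 h limma passed 0 of them, with 2 at an unadjusted p under 0.05, against 6.49% of all genes. A further 4 probe sets had both 6 h means over 0.5 below the 24 h mean, those of MYEF2, VPS13C (a lipid transfer protein), PYHIN1 (an interferon-inducible nuclear protein) and 1 probe set with several symbols. HSP90B1, the endoplasmic reticulum chaperone GRP94, was in the set through the less abundant of its 2 probe sets (-0.78 ± 0.20), and REEP3, a protein that shapes the endoplasmic reticulum, by -0.78 ± 0.62, of which experiment 3 gave the largest part.

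The probe set farthest above ethanol at 6 h was that of LIMK2, a kinase that phosphorylates cofilin and thereby stabilizes actin filaments. That probe set had 6.63, 6.30 and 6.61 with dexamethasone at 6 h, against 5.50, 4.97 and 5.38 with ethanol. At 24 h it had 5.43, 5.48 and 5.31 with dexamethasone and 5.15, 5.65 and 5.46 with ethanol. The dexamethasone arrays of 6 h lay above all other 9. The difference was 1.23 ± 0.10 at 6 h and -0.01 ± 0.25 at 24 h. A second, more abundant probe set of the gene was in the set as well (0.63 ± 0.04), while 1 outside it differed by 0.34 at 6 h and -0.03 at 24 h.

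After 2 probe sets without a symbol (0.96 and 0.89) and ARSK, the next in size at 6 h were ATP2A3, a calcium pump of the endoplasmic reticulum (0.78 ± 0.16), AP2A1, a clathrin adaptor subunit (0.76 ± 0.21), GPN2 (0.74 ± 0.15) and RASAL1, a negative regulator of Ras (0.73 ± 0.24). ATP2A3 had 7.73, 8.57 and 8.46 with dexamethasone at 6 h, against 7.12, 7.63 and 7.65 with ethanol, and these groups did not overlap, though its dexamethasone arrays of 6 h did not stand clear of the arrays of 24 h. ARSK, a sulfatase (0.82 ± 0.57 and 0.59 ± 0.24), CPSF1, a part of the complex that cleaves messenger RNA ends (0.71 ± 0.50), GHDC (0.70 ± 0.29) and PIP5K1C, which makes a membrane phosphoinositide (0.69 ± 0.07), completed the 10 largest with a gene name, along with MT1E. TNRC6A, a scaffold protein of microRNA silencing, had 2 probe sets in the set (0.54 ± 0.11 and 0.57 ± 0.23). ESPL1, the protease separase that releases sister chromatids, had its ethanol arrays of 6 h below the other 9 (9.28, 9.53 and 9.28, against 9.74, 10.15 and 9.79 with dexamethasone).

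A group of 3 metallothioneins, cysteine-rich proteins that bind zinc and copper, were in the set, each through a probe set of the kind that also matches near-identical paralogs. MT1H had 10.86, 9.62 and 11.80 with dexamethasone at 6 h, against 10.77, 9.07 and 10.80 with ethanol. At 24 h it had 6.48, 6.58 and 7.36 with dexamethasone and 6.46, 6.59 and 7.16 with ethanol. Both groups of 6 h overlapped, and both lay above both groups of 24 h. The differences at 6 h were 0.55 ± 0.45 for MT1H, 0.62 ± 0.70 for MT1G and 0.72 ± 0.54 for MT1E, and the 6 h groups of all 3 overlapped. All 9 tested MT1 and MT2A probe sets differed between the times, 24 h minus 6 h, by -4.76 to -2.65 with dexamethasone and by -4.09 to -1.73 with ethanol. Differences between the times, here and below, cross the array batches and cannot be told apart from them. MT1H was also the only one of the 139 to pass limma between the ethanol times (-3.47), and 0.486% of all probe sets passed there. Between the dexamethasone times, 71 of the 139 passed (50 higher, 21 lower at 24 h), against 46.7% of all (23.9% higher, 22.8% lower). PLEC, the cytoskeletal linker plectin, likewise had both 6 h means over 0.5 above the 24 h mean.

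Other probe sets of the same genes often differed less. Of the 105 genes, 75 had another 161 tested probe sets outside the set. Of these, 127 had the sign of the gene's probe set in the set at 6 h (78.9%) and 34 had the opposite one. Turned to that sign, their median difference was 0.21, against 0.56 for these genes' probe sets in the set, and 20 reached 0.5 in size. At 24 h, 64 of the 161 were at least 0.25 in size. The rule admits only differences of at least 0.5 in size at 6 h and under 0.25 at 24 h. Nothing is thus read from the distance of the other probe sets to those in the set. Shares over all probe sets for the sign and for the size at 24 h are not given here. Of 78 genes with several tested probe sets, all had 1 sign and were under 0.25 at 24 h in 30, and all were in the set in 3: IFRD1 (3 probe sets), SUDS3 (2) and TNFAIP3 (2). The most abundant probe set was in the set for 26 genes and outside it for 52. In 19 of these 52 genes it differed by at least 0.25 in size at 24 h.

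**Figure D5:**
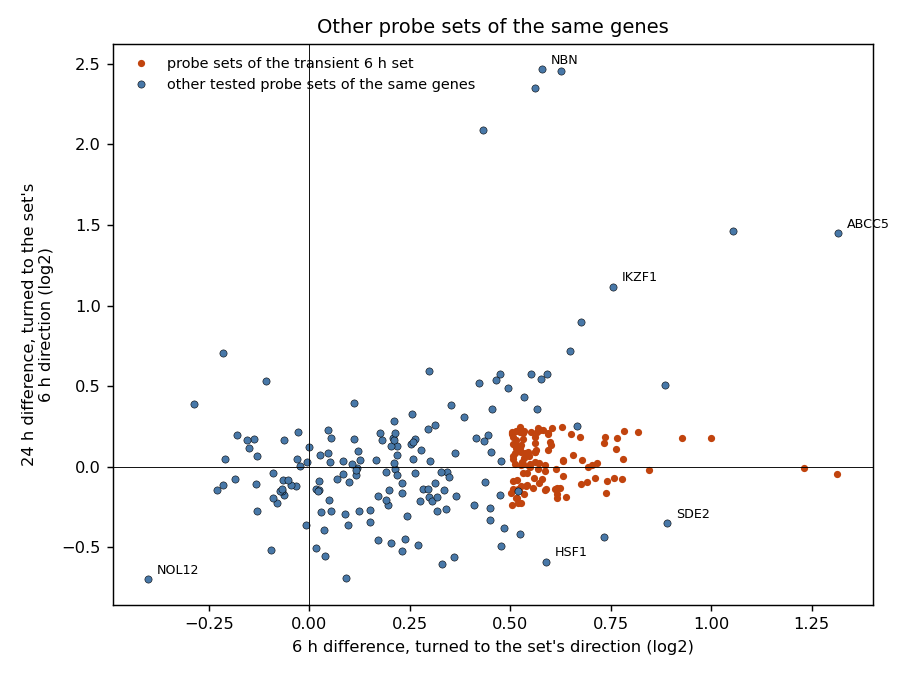
Differences at 24 h (y axis) against 6 h (x axis), both log2 and turned to the sign of the set at 6 h, for the probe sets of the set that carry a gene name and for 161 other tested probe sets of the same genes. The other probe sets spread around smaller differences at 6 h and reach 2.47 at 24 h for NBN. The rule itself held the set to at least 0.5 in size at 6 h and under 0.25 at 24 h.

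Several genes differ more at 24 h than their probe set in the set shows. NBN, a DNA break sensor, was in the set through 1 probe set (0.55 at 6 h), while its 4 other tested probe sets differed by 0.43 to 0.63 at 6 h and by 2.09 to 2.47 at 24 h. IKZF1, the lymphoid transcription factor Ikaros, was in the set through 1 probe set (0.58 at 6 h, 0.23 at 24 h), and its 7 other tested probe sets differed by 0.31 to 1.12 at 24 h. ABCC5, a drug and cyclic nucleotide exporter, had 2 others at 1.46 and 1.45 at 24 h. ATP2A3 had 3 others at 0.43, 0.52 and 0.25 at 24 h, and ARSK 1 other at 0.54. For these 5 genes a difference gone by 24 h holds for the probe sets in the set and not for the others. The same limit applies to further genes. The other tested probe sets of PTPN22 (0.42 and 0.33), RCL1 (0.49) and REEP3 (0.27) were higher at 24 h, though lower at 6 h. The most abundant probe set of RUFY3 differed by -0.23 at 6 h and 0.52 at 24 h. Its other tested ones outside the set were at -0.24, -0.26 and 0.01 at 6 h, and at 0.45, -0.15 and -0.03 at 24 h. Those of NDUFS1 differed by -0.18 (its most abundant), -0.13 and 0.02 at 6 h. MALAT1 had 11 other tested probe sets, of which 10 were lower at 6 h, and the most abundant differed by 0.13 at 6 h and 0.27 at 24 h. HSP90B1 differed by 0.07 at 6 h on its more abundant probe set, AURKA, a mitotic kinase, by 0.06 and 0.22 against -0.55 in the set, and HNRNPH1 by 0.03 and -0.05 on its most abundant probe sets against -0.51. The most abundant probe sets of KIF5B (-0.12), TAF13 (-0.23), NUCKS1 (-0.02), UHMK1 (-0.08), LIX1L (-0.12), LRP12 (-0.33), TNRC6A (0.21) and GPN2 (0.05) also differed less at 6 h. All of these lay outside the set. HSF1, the heat shock transcription factor (0.51 ± 0.24), was in the set by 1 probe set, and its other one differed by 0.59 at 6 h and -0.59 at 24 h.

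No list held more than 1 gene of the set. The set's genes were 105 of 9947 measured, and none of the 25 measured glucocorticoid receptor targets was among them. Beside so small a share, nothing is read from the number of the set's genes on a list. Of these 25, 17 passed higher at 6 h and 0 lower, where 271 of all 9947 genes passed higher and 375 lower. Of 20 listed serpins, 5 were measured. SERPINB9, an inhibitor of granzyme B, differed by -1.09 at 6 h (limma adjusted p 0.192) and -2.25 at 24 h (adjusted p 0.0016), so its level was lower at 24 h too. SERPINB1, an inhibitor of neutrophil proteases, differed by 0.41 at 6 h and 0.84 at 24 h, SERPINF1 by 0.20 and 0.09 at these times, and SERPINB8 by 0.01 and 0.16. Apart from SERPINI1, which was chosen on its 6 h difference, SERPINB9 at 24 h was the 1 of these that passed lower. Of 29 measured splicing factors 1 passed at 6 h (SRSF7, -0.41), and of 30 mitosis genes limma passed 0, with 3 at an unadjusted p under 0.05, against 6.49% of all genes. All of these lists were written with earlier results known. Of 24 MYC and ribosome biogenesis genes 12 passed lower at 6 h, and 23 passed lower and 1 higher at 24 h, where 6.49% of all genes passed at 6 h and 52% at 24 h. RCL1 of that list was in the set through 1 of its probe sets. Its more abundant probe set, outside the set, was the 1 that passed higher at 24 h (0.49, limma adjusted p 0.0024).

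The probe sets of the set had a lower median level than the rest, the other tested probe sets with a mean of at least 5. In the set, the median mean level was 6.89 for those lower at 6 h and 6.76 for those higher, against 8.23 in the rest. The other probe sets past the 6 h criteria had 7.26 (lower) and 7.80 (higher). A level below that of the rest was thus not particular to the set. Probe sets without a symbol made up 15.4% of the lower and 8.33% of the higher, against 11.6% of the rest. Gene spans had a median of 54.0 kb among the lower and 37.5 kb among the higher, against 37.0 kb in the rest. The median GC content of the promoter sequence was 64% and 66.3%, against 65.3%. For the other probe sets past the 6 h criteria, lower and higher, the share without a symbol was 13.1% and 15.3%. Their median spans were 40.2 and 51.3 kb, and their median GC contents 65.3% and 65.7%.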

How the data were processed

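RNA of 12 cultures of 1 clone was hybridized to 1 array each. Per the submitters' processing notes, the deposited log2 expression values per probe set came from GCRMA under R 2.6. How GCRMA was set, and on which arrays jointly, is not given in the sources used here. Arrays were grouped by their titles. The set was found by its rule in Python 3.11.15, and genes were named by the platform's annotation and RefSeq. The members and gene lists were chosen with earlier results of these data known.

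With limma 3.58.1 in R 4.3.3, 1 model of group means was fitted to all 12 arrays. Only the 23265 probe sets that reached a log2 of 4 or more on 3 or more arrays entered, p values were adjusted over all of them by Benjamini-Hochberg, and the code was tested on simulated data. Lists used 1 tested probe set per gene, that with the highest mean. The p values rest on the spread among 3 experiments of 1 clone per group. That spread was pooled over the 4 groups, with 8 residual degrees of freedom, and moderated by limma across probe sets. It includes the variation between experiments, and the number of arrays limits the precision.

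Same-numbered arrays deviated together: their deviations from the group means correlated at 0.417, 0.627 and 0.609 for 6 h, and 0.286, 0.238 and 0.424 for 24 h. Among the pairs with unlike numbers, r reached 0.0500 at most. Deviations from a group mean sum to 0 within the group, so values above 0 for like numbers push those for unlike numbers down. The unlike pairs are thus no separate support for a pairing. The numbers were taken as pairing the arrays on the values of the same-numbered ones, and the experiment was also used as a block. The main model of group means left this pairing out, and the list counts rest on that model alone. Genes were named by rule: SERPINI1, the 10 largest differences each way, genes with several probe sets in the set, list members and the widest gaps from the other arrays. Others were named after their values were seen. Alternatives changed the thresholds, the filter, the scaling and the replicates.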

Additional observations from a re-analysis of the deposited data

Results flagged for a closer look

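The difference between the responses at 24 h and 6 h passed limma's test for 32 of the 139 probe sets, which the rule had chosen on that difference. Over all probe sets 23.1% passed there. The 18S rRNA controls, which lie outside the comparisons of genes, differed by -2.27 between dexamethasone and ethanol at 6 h. The poly-A spike controls differed by 0.48 at 6 h. The values of both on every array stand in the report. No group was tested for outlying arrays, since each held 3.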

How the results depend on the processing

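The number of probe sets in the set followed its thresholds. A 6 h threshold of 0.75 left 16 and one of 1 left 2, and a 24 h threshold of 0.15 left 90. Scaling to the poly-A spike controls gave 1796 probe sets, of which 23 were among the 139, and the cause was not tested. Leaving out 1 experiment gave 136 to 309. The highest, 309, came without experiment 0 of 6 h and held 117 of the 139. In all 6 such settings 29 of the 139 met the rule.

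The experiment as a block, a pairing given by its number, moved the calls among the 139. They went from 53 to 101 at 6 h, from 2 to 6 at 24 h and from 32 to 75 for the difference between the responses. Over all probe sets, the shares moved from 6.2% to 13.1%, from 47.3% to 56.5% and from 23.1% to 33.9%. The same values chose the set, so nothing is read from these counts or those below. With no filter on low values, the calls were 34 at 6 h, 18 for the difference and 0 between the ethanol times. Of all probe sets, 2.09%, 8.11% and 0.181% passed there. With a filter at 6, 116 of the 139 were tested and 4 passed between the ethanol times, with 1.03% of all. Spike scaling gave 91 at 6 h (90 of them lower), 34 at 24 h and 3 between the ethanol times. Of all probe sets, 68.2%, 53.2% and 0.156% passed there. This scaling moved the median difference of all tested probe sets at 6 h to -0.49. Median centring gave 0 at 24 h and 2 between the ethanol times, cyclic loess 1 at 24 h, and a fit to the 6 arrays of 6 h alone 17 at 6 h. Leaving out 1 array gave 31 to 60 at 6 h, and 0 to 2 at 24 h (0 without the ethanol array of experiment 2). It gave 20 to 38 for the difference, 0 to 4 between the ethanol times and 53 to 75 between the dexamethasone times. Of all probe sets, 3.64% to 6.03% passed at 6 h in these fits, 39.5% to 48.3% at 24 h and 17.4% to 23.0% for the difference. Between the ethanol times 0% to 1.14% passed, and between the dexamethasone times 38.4% to 46.4%. The SERPINI1 difference at 6 h ranged from -1.44 to -1.15 when 1 array was left out, the smallest without the dexamethasone array of experiment 1.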
